A study of Homo sapiens with 6 samples.

Results

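The baseline transcriptome of control Mec-1 cells was described from the 3 arrays labelled control shRNA, of 6 arrays in the series. Mec-1 is an established human B cell line. It was derived from a patient with chronic lymphocytic leukaemia (CLL) in prolymphocytoid transformation, and it carries Epstein-Barr virus (EBV). The control cells had been transfected with a scrambled short hairpin RNA (shRNA) cassette, TR30013, which the labels call non-effective, and were grown in complete medium. The labels call the line CLL-like and constitutively SLAMF1+. The design text calls the 3 samples biological replicates, but it does not state whether they were separate cultures or separately derived clones, so the spread between them may be technical. The extraction protocol speaks of purified leukemic cells, although the samples are labelled as the Mec-1 line. The labels of the 3 arrays share 1 number and differ in a final letter, which was read here as positions on 1 chip. The other 3 arrays of the series held cells with an shRNA against SLAMF1 and were not compared here.

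A mature B cell is recognised by its antigen receptor, an immunoglobulin paired with the signalling chains CD79A and CD79B, and by surface proteins such as CD20 (MS4A1), CD21 (CR2) and CD23 (FCER2). Receptor engagement activates the kinases LYN, SYK and BTK, which activate phospholipase C gamma 2, encoded by PLCG2. CLL cells usually carry CD5 and CD23 with dim CD20 and dim surface immunoglobulin. EBV turns resting B cells into growing lymphoblasts that express activation and adhesion molecules, NF-kappaB targets and cell cycle genes. Here these groups, and marker genes of other lineages, were read as detected or not detected and by their place among all genes on the array.

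Each probe had a signal intensity in arbitrary units and a detection p-value, which ranks its signal against the negative control probes of the same array. A gene was called detected on an array when the detection p of any of its probes was under 0.05, with no adjustment over probes. Of 47321 probes with a value, 19586, 18900 and 18991 were detected on control replicates 1, 2 and 3, which is 41.4%, 39.9% and 40.1%. Background inferred from these detection calls averaged 89.1, 83.6 and 83.5 units. The dimmest detected probes read 96.1, 89.6 and 89.9 units, and the brightest probes just outside the call read the same to this rounding. Median intensity was 93.2, 86.8 and 87.0, and replicate 1 was the brightest array by mean intensity as well, at 294 against 231 and 242. The median probe of each array thus lay within a few units of background. The number of arrays, 3, limits the precision of every level given.

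The probes named 20046 genes. Of these, 9638 (48.1%) were detected on all 3 control arrays and 7899 (39.4%) on none. Another 1642 genes were detected on 1 array only and 867 on 2. A stricter class, called bright here, held the 5304 genes (26.5%) that were detected on all 3 arrays and read at least 2 times the background mean on each. Probes for 1 gene often differed. Among 6691 genes with at least 2 probes, 1412 (21.1%) had 1 probe detected on all 3 arrays and another detected on none, so absence was read only where no probe of a gene was detected. Genes named below with such probes include PTPN6, STMN1, MS4A1, CXCR4, CXCR5, ATM, LY9, PCNA, CD68, LCK and BCL11B. Units given for a gene are those of its brightest probe, unless stated. A gene's rank was that of its brightest probe among the 20046 genes of an array, with rank 1 the brightest, and is given as the mean over the 3 arrays. The rank orders probe signals, which depend on the probe sequence too, so it does not order transcript abundance between genes.

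The brightest signals came from the translation apparatus and the cytoskeleton. EEF1A1, the elongation factor that brings aminoacyl-tRNA to the ribosome, was the brightest gene on every control array, at 15224, 14764 and 14065 units. Of the 30 genes with the lowest mean rank, many encoded ribosomal proteins (RPS27, RPL41, RPS25, RPLP2, RPL6), and others were TMSB4X, ACTB and ACTG1, the thymosin and actins of the cytoskeleton. LDHA and ENO1, enzymes of glycolysis, and FTL, the ferritin light chain, belonged to the same 30. Several of the 30 symbols named pseudogenes or near-identical copies, such as RPL13AP5, RPSAP9, PPIAL4A and SLC7A5P2, whose probes may detect the parent transcripts, and these are uncertain. LAIR1, an inhibitory collagen receptor of leukocytes, read 11311, 11199 and 10665 units. CLEC2D, the ligand of the lymphocyte receptor KLRB1, read 11576, 9985 and 11374 units. LAIR1 and CLEC2D thus stood among ribosomal protein genes on all 3 arrays. Signal was spread over many genes: after subtraction of background, the brightest 100 genes held 20.0%, 20.9% and 20.1% of the summed signal, and the brightest 1000 held 62.5%, 61.7% and 61.3%. All 13 measured housekeeping genes were detected on every array, against 48.1% of all genes, with a median mean rank of 191 against 10514.

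**Figure D1:**
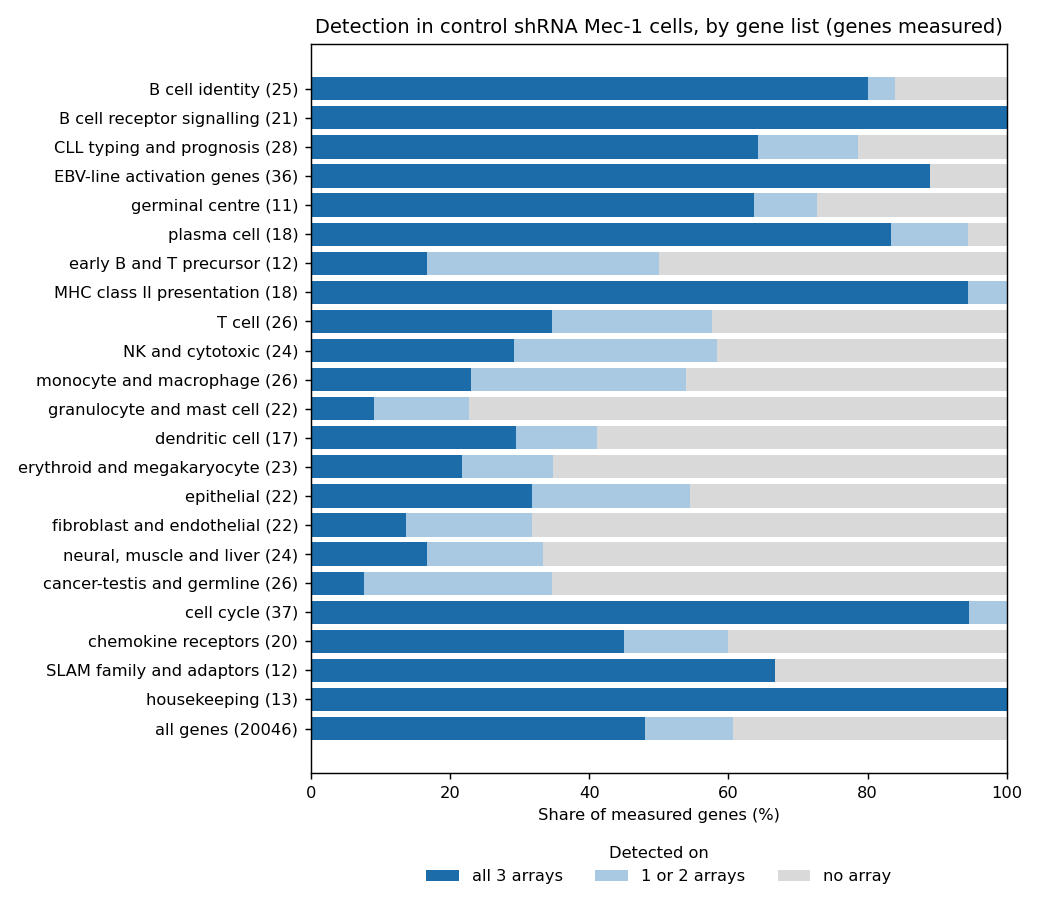
Share of measured genes (x axis, percent) detected on all 3 control arrays, on 1 or 2, or on none, for each gene list and, in the lowest bar, for all genes (number measured in brackets). All measured members of the B cell receptor signalling and housekeeping lists were detected on every array, while the bars from T cell down to cancer-testis and germline show a smaller dark part than the bar of all genes.

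The B cell identity genes were mostly present. Of 25 measured members, 20 (80%) were detected on all 3 control arrays and 4 (16%) on none, against 48.1% and 39.4% of all genes. Their median mean rank was 4081, against 10514 for all genes. IRF8, a transcription factor of B and myeloid cells, was the brightest, at 2165, 2551 and 2751 units (mean rank 365). Its background-corrected log2 level was 11.25 ± 0.47 (SD, n = 3), among the wider spreads of the list. Of the antigen receptor chains, CD79B read 1011, 765 and 775 units (9.59 ± 0.05, log2, SD, n = 3), and CD79A read 893, 657 and 656 units (9.36 ± 0.09). For both chains replicate 1 was higher than the others in units, and the spread was small after normalization. CR2, the complement receptor through which EBV enters B cells, read 1272, 810 and 629 units (9.63 ± 0.40). Of its 3 probes, 1 was detected on no array.

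Several regulators and surface proteins of B cells had middle signals. FCRLA, an intracellular Fc receptor-like protein, read 749, 677 and 598 units, and FCMR, the receptor for IgM, read 587, 526 and 568 units. POU2AF1, the coactivator that works with octamer-binding factors on immunoglobulin promoters, read 614, 520 and 488 units. MS4A1, which encodes CD20, read 461, 470 and 407 units (mean rank 2642), at least 4.87 times background on each array. These 4 genes were bright on every array. The transcription factors EBF1, TCF3 and IKZF1 were bright as well. SPIB, CD22, CD24, BLNK, IKZF3 and SPI1 were detected on all 3 arrays at under 2 times background on at least 1 of them. POU2F2 was detected on 1 array only.

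The B cell identity members detected on none were PAX5, CD72, TNFRSF13C and BACH2. PAX5, the transcription factor that holds B cells to their lineage, had 1 probe, which read 90.0, 81.8 and 80.5 units with detection p of 0.360, 0.682 and 0.819. Its signal therefore lay at background, while CD79A, a gene known to be activated by PAX5, was bright. BACH2, a repressor of plasma cell differentiation, was undetected by all 3 of its probes. TNFRSF13C, the receptor for the survival factor BAFF, and CD72, an inhibitory coreceptor, had 1 probe each. TNFRSF13B, the related receptor TACI, was detected at 476, 359 and 358 units. For a gene with 1 probe, a failed probe and an absent transcript cannot be told apart.

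The B cell receptor signalling genes were complete: 21 of 21 measured members were detected on all 3 control arrays and 17 (81%) were bright. Over all genes, 48.1% were detected on all 3 arrays and 26.5% were bright. The median mean rank was 2461, against 10514 for all genes. CD81, a tetraspanin of the coreceptor complex, was the brightest at 6642, 4546 and 4869 units (12.35 ± 0.03, log2, SD, n = 3). Of the kinases, LYN, which phosphorylates the receptor chains, read 1262, 1264 and 1436 units. BTK, the target of ibrutinib, read 1129, 998 and 1070 units (mean rank 1026), and SYK read 416, 504 and 396 units. All 3 kinase genes were several times above background on every array. Of the second messenger enzymes, PLCG2 read 1581, 1832 and 1701 units (10.68 ± 0.36) and PRKCB, protein kinase C beta, read 779, 725 and 853 units. DAPP1, an adaptor that binds phosphoinositides, read 2446, 1282 and 1484 units, with replicate 1 the highest. After normalization its log2 levels were 10.89, 10.45 and 10.55. The inhibitory phosphatases PTPN6 (810, 799 and 691 units) and INPP5D (516, 498 and 426 units) and the inhibitory Fc receptor FCGR2B (367, 259 and 253 units) were bright too. The other PTPN6 probes were detected on no array, and the other INPP5D probe on 1, so these values rest on 1 probe each. The adaptor BLNK, the guanine exchange factor VAV1, the NF-kappaB adaptor BCL10 and NFATC1 were the 4 dim members.

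**Figure D2:**
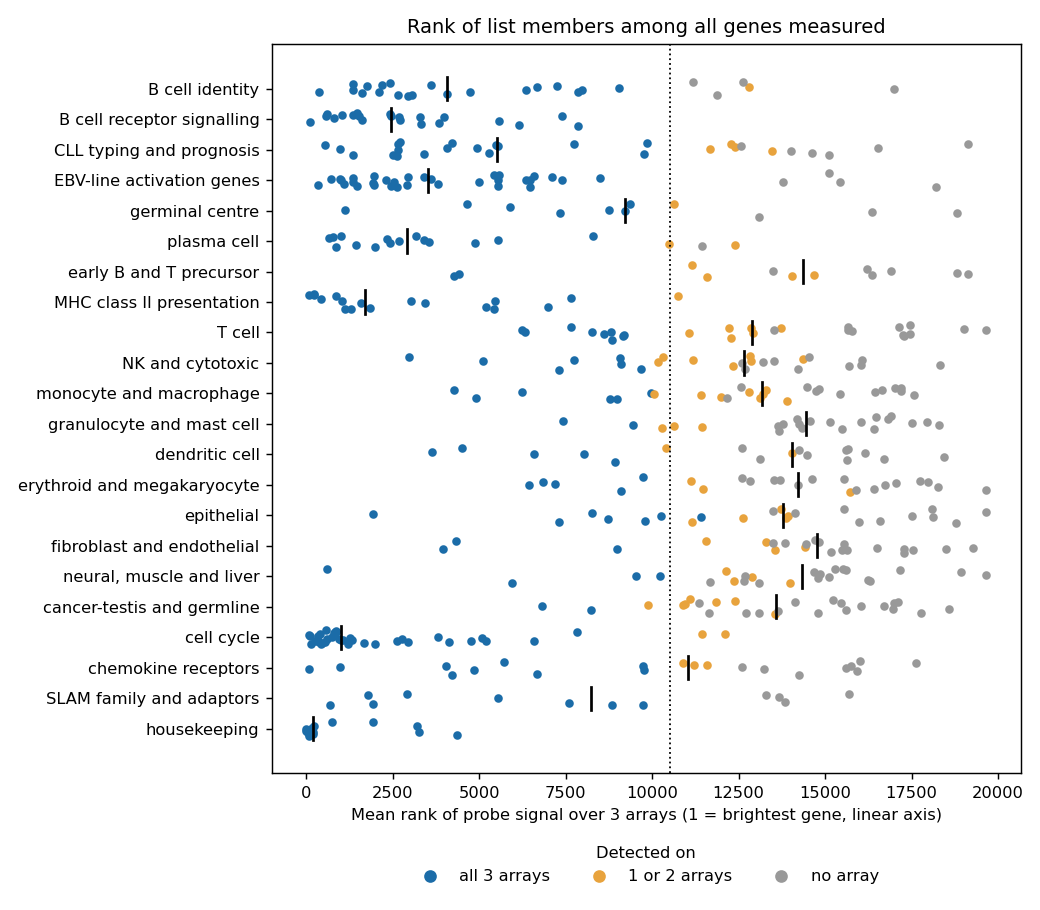
Mean rank of each measured gene over the 3 control arrays (x axis, linear, rank 1 is the brightest of 20046 genes) by gene list, coloured by the number of arrays on which it was detected. The vertical bars mark the list medians and the dotted line the median of all genes, 10514; the B cell receptor signalling median lies at 2461 and the T cell median at 12895.

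The CLL genes were mixed. Of 28 measured members of the CLL typing and prognosis list, 18 (64.3%) were detected on all 3 control arrays, 4 on 1 array and 6 (21.4%) on none, against 48.1% on all 3 and 39.4% on none for all genes. The surface proteins of typing panels divided. FCER2, which encodes CD23, read 482, 434 and 418 units (8.55 ± 0.13, log2, SD, n = 3), and CD52, the target of alemtuzumab, read 480, 495 and 431 units. CD5, the T cell antigen that marks CLL cells, was detected on none: its 1 probe read 86.2, 78.6 and 78.9 units with detection p of 0.747, 0.948 and 0.927. The 3 CD5 values lay below the background mean of their arrays. CD200, used to separate CLL from mantle cell lymphoma, was detected on all 3 arrays at 124, 106 and 115 units, which is dim. ROR1, an embryonic receptor tyrosine kinase of CLL cells, was detected on 1 array.

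The prognostic markers of CLL divided as well. ITGA4, the VLA-4 alpha chain, read 217, 178 and 172 units and TCL1A, a coactivator of AKT whose transgene gives mice a CLL-like disease, read 252, 190 and 185 units, and both were bright. ZAP70, a kinase whose presence marks unmutated immunoglobulin genes, and CD38 were each detected on 1 of 3 arrays. LPL, lipoprotein lipase, and CLLU1, a transcript named for its expression in CLL, were detected on none, as were CD1C, FMOD and TNFRSF8. LEF1, a Wnt effector found in CLL cells, was detected on 1 array. Genes that are mutated in CLL were present: SF3B1, a splicing factor, read 1922, 1591 and 1606 units (mean rank 559), and NOTCH1 read 501, 360 and 448 units. ATM was detected on every array at 241, 156 and 158 units. These arrays measure transcript levels and hold nothing on mutations.

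Survival and homing genes of CLL were detected. BCL2, the antiapoptotic target of venetoclax, read 583, 370 and 408 units (8.55 ± 0.18, log2, SD, n = 3) on the brightest of its 4 probes. Another BCL2 probe read 454, 258 and 308 units, the third read 103, 101 and 104 units, and the fourth was detected on no array, so the call depends on the probe. CCR7, which guides lymphocytes to lymph nodes, read 1226, 891 and 1266 units (10.03 ± 0.24). CXCR4, the receptor for the stromal chemokine CXCL12, read 290, 223 and 263 units. Replicate 1 was the highest in units for BCL2 and CXCR4 and replicate 3 for CCR7.

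**Figure D3:**
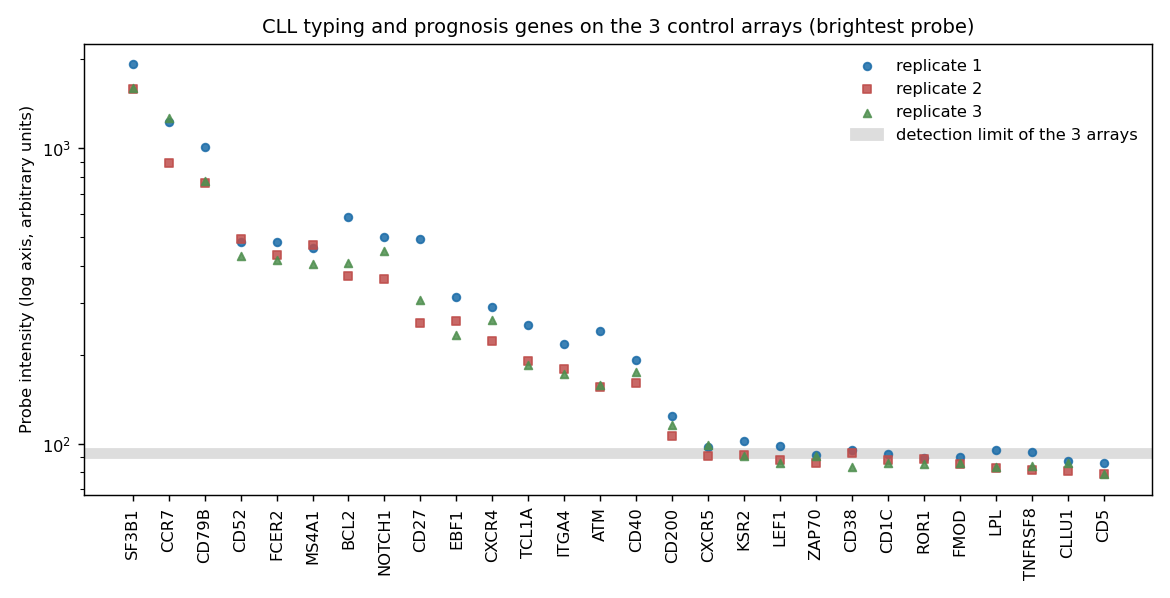
Probe intensity (y axis, log scale, arbitrary units) of the brightest probe of the 28 measured CLL typing and prognosis genes on each of the 3 control arrays, ordered by mean rank. The grey band spans the detection limits of the arrays; SF3B1 lies highest, at 1922, 1591 and 1606 units, and CD5 lowest, below the band on every array.

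Genes of EBV-transformed lines were present in large part. Of 36 measured members, 32 (88.9%) were detected on all 3 control arrays, 22 (61.1%) were bright, and 4 (11.1%) were detected on none. Over all genes these shares were 48.1%, 26.5% and 39.4%. The median mean rank was 3509, against 10514 for all genes. FSCN1, the actin-bundling protein fascin, which resting B cells lack and EBV-carrying lines express, was the brightest at 2605, 2427 and 2904 units (11.34 ± 0.33, log2, SD, n = 3). The transcription factors MYC (1573, 1163 and 1645 units), IRF4 (1429, 959 and 936 units) and IRF5 (672, 822 and 915 units) were bright on every array. GPR183, the oxysterol receptor first named for its induction by EBV, read 1223, 584 and 906 units. CD70, the ligand of CD27, read 1527, 808 and 871 units. In units, GPR183 and CD70 were highest in replicate 1 and lowest in replicate 2. After normalization CD70 was level in replicates 2 and 3, at 9.73 and 9.72 on the log2 scale.

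Surface and signalling members of the same list were also detected. CD86, a costimulatory ligand chosen after its values were seen, read 618, 580 and 633 units (9.07 ± 0.20, log2, SD, n = 3). The next members were chosen in the same way. CD58, the adhesion ligand of CD2, read 1033, 438 and 527 units. CD83, an activation marker, read 507, 440 and 492 units. The NF-kappaB targets TRAF1 (313, 330 and 362 units) and TNFAIP3 (291, 287 and 295 units) lay close together in units only. After normalization replicate 1 was the lowest for each, with log2 levels of 7.69, 8.22 and 8.25 for TRAF1 and 7.55, 7.96 and 7.87 for TNFAIP3. CCL3, a chemokine of activated B cells, read 349, 647 and 311 units and was highest in replicate 2. Its relative CCL4 was detected on none, as were CCL17, the transcription factor HLX and TNFRSF8, which encodes CD30. Transcripts of the virus itself were not analysed here.

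The SLAM family is a set of lymphocyte receptors that mostly bind their own kind and signal through the adaptor SAP, encoded by SH2D1A. SLAMF1, the CD150 receptor of the series' question, was detected on all 3 control arrays at 472, 395 and 346 units on its 1 probe (mean rank 2907, 8.37 ± 0.18, log2, SD, n = 3), at least 4.14 times background on each array. CD48, the family's lipid-anchored ligand, had the brightest probe of the list, at 1967, 1255 and 1294 units. SLAMF6 (608, 610 and 623 units) and the kinase FYN (683, 630 and 660 units) were almost level in units. Replicate 1 was the brightest array before normalization, so level units do not mean level normalized values. SLAMF7, LY9, CD84 and SH2D1A were detected on all 3 arrays and dim, SH2D1A at 104, 96.2 and 101 units. SLAMF8, SLAMF9, CD244 and the second adaptor gene SH2D1B were detected on none. In all, 8 of 12 measured members (66.7%) were detected on all 3 arrays and 4 (33.3%) on none, against 48.1% and 39.4% of all genes.

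The antigen presentation genes were among the brightest of the B cell groups. Of 18 measured MHC class II genes, 17 (94.4%) were detected on all 3 control arrays and 15 (83.3%) were bright. Over all genes these shares were 48.1% and 26.5%. The median mean rank was 1710, against 10514 for all genes. HLA-DRA, the alpha chain of HLA-DR, read 8754, 5308 and 7133 units (12.74 ± 0.18, log2, SD, n = 3). CD74, the chaperone that fills the groove of class II molecules, read 4378, 3141 and 3198 units, and HLA-DPA1 read 4277, 2964 and 3282 units. The peptide exchange factors HLA-DMA and HLA-DMB and the class II transcription factor RFX5 were bright as well. Probes of the HLA-DRB genes and of HLA-DQA2, which was detected on 1 array, may detect relatives, and their values are uncertain.

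Markers of B cell stages were uneven. Of 18 measured plasma cell genes, 15 (83.3%) were detected on all 3 control arrays, against 48.1% of all genes. Members of the secretory pathway were the brightest, among them SSR4, a subunit of the translocon-associated complex, at 2309, 1206 and 1369 units, and XBP1, the transcription factor of the unfolded protein response, at 1398, 1150 and 1439 units. JCHAIN, which joins IgM and IgA into polymers, read 941, 713 and 750 units (9.50 ± 0.02, log2, SD, n = 3). TNFRSF17, the plasma cell receptor BCMA, read 556, 488 and 423 units. SDC1, which encodes CD138 and was chosen after its values were seen, had 1 of its 3 probes detected on all arrays, at 340, 398 and 354 units, another on 2 and the last on none. CD38 was detected on 1 array and DERL3 on 2.

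The germinal centre list held 11 measured genes, of which 7 (63.6%) were detected on all 3 arrays, 3 (27.3%) on none and 2 (18.2%) were bright. Over all genes these shares were 48.1%, 39.4% and 26.5%. STMN1, a microtubule regulator of dividing cells, read 1225, 813 and 977 units, and GCSAM, a membrane protein of germinal centre B cells, read 244, 222 and 209 units. BCL6, the repressor that governs the germinal centre, lay just above the detection limit at 108, 92.7 and 92.5 units. MME (CD10), RGS13 and S1PR2 were detected on none. Of 12 precursor genes, 2 (16.7%) were detected on all 3 arrays and 6 (50%) on none, against 48.1% and 39.4% of all genes. The 2 were IGLL1 (278, 236 and 245 units on 1 probe, with its other 2 on none) and SOX4 (306, 199 and 234 units). IGLL1 encodes a part of the surrogate light chain. The recombinase genes RAG1 and RAG2, the terminal transferase DNTT, VPREB1 and KIT were detected on none. Immunoglobulin chain genes were not named here, apart from JCHAIN and IGLL1.

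Cell cycle genes were bright. Of 37 measured members, 35 (94.6%) were detected on all 3 control arrays, 33 (89.2%) were bright, and none was undetected on every array. Over all genes, 48.1% were detected on all 3 arrays, 26.5% were bright and 39.4% were detected on none. The median mean rank was 1003, against 10514 for all genes. The replicative helicase gene MCM7 read 6829, 6804 and 7247 units (12.74 ± 0.35, log2, SD, n = 3), and its partner MCM3 read 6114, 5640 and 5869 units. CDC20, the activator of the anaphase-promoting complex, read 5359, 4253 and 4884 units, and PCNA, the sliding clamp, read 3894, 1901 and 2455 units. The D-type cyclin CCND2, which EBV induces in B cells, read 2534, 2312 and 2391 units (11.20 ± 0.23). CCNE2 and the inhibitor gene CDKN2B were each detected on 1 array.

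Among 20 measured chemokine receptors, 9 (45%) were detected on all 3 control arrays and 8 (40%) on none, near the 48.1% and 39.4% of all genes. CCR6, the receptor for CCL20 found on mature B cells, was the brightest at 9337, 5202 and 5261 units (mean rank 95.3, 12.62 ± 0.17, log2, SD, n = 3), which placed its probe among the 100 brightest genes. Another CCR6 probe read 278, 238 and 263 units and the third was detected on no array, so the place of CCR6 rests on 1 probe. ACKR3, a scavenger of CXCL12, read 389, 218 and 243 units, and CXCR3 read 235, 187 and 221 units. CXCR5, which takes B cells into follicles, was at the limit at 97.2, 90.7 and 99.3 units. CCR2, measured by 10 probes, was detected by none of them, and neither were CCR4, CCR8, CXCR1, CXCR2 and CXCR6.

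Few genes of other lineages were bright. In bulk RNA, few cells of another type and a low level in the Mec-1 cells themselves cannot be told apart. Of 26 measured T cell genes, 9 (34.6%) were detected on all 3 control arrays and 11 (42.3%) on none, and none of the 26 was bright. Over all genes these shares were 48.1%, 39.4% and 26.5%, so the share on none was near that of all genes. CD3D, CD3E and CD3G of the T cell receptor complex and the coreceptors CD4, CD8A and CD8B were detected on none. CD247, which encodes another chain of that complex, was detected on all 3 arrays, at 113, 102 and 95.4 units. CD2, CD6, GATA3, TBX21, IL7R and SH2D1A were detected on all 3 arrays as well. The brightest T cell genes were BCL11B, a transcription factor of the T lineage, at 154, 139 and 157 units, and LCK, a SRC family kinase, at 152, 140 and 147 units. Each read under 2 times background on every array.

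Of 24 NK and cytotoxic genes, 7 (29.2%) were detected on all 3 control arrays and 10 (41.7%) on none, and 2 (8.33%) were bright. Over all genes these shares were 48.1%, 39.4% and 26.5%, so the share on none was near that of all genes. EOMES, a T-box transcription factor of NK and CD8 T cells, read 321, 448 and 427 units (mean rank 2970, 8.35 ± 0.54, log2, SD, n = 3), with replicates 2 and 3 above replicate 1. PRF1, which encodes perforin, read 211, 196 and 183 units. The granule and receptor genes GZMB, GZMH, KLRD1, NCR1 and NCAM1 were detected on none. Others of these kinds, GZMK, GZMM, GNLY and NCR3, and the adaptor gene TYROBP were detected on all 3 arrays and were not bright. EOMES and PRF1 were the 2 bright members.

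Of 26 monocyte and macrophage genes, 6 (23.1%) were detected on all 3 control arrays and 12 (46.2%) on none, against 48.1% and 39.4% of all genes. CD68, a lysosomal glycoprotein, read 289, 235 and 235 units, and AIF1, an actin-binding protein, read 280, 190 and 175 units. CD68 and AIF1 were the 2 bright members (7.69%, against 26.5% of all genes). LYZ, CST3, TLR4 and ITGAM were detected on all 3 arrays and were not bright. CSF1R, MRC1, MARCO, C1QA, C1QB and VCAN were detected on none and CD14 on 1 array. Of 22 granulocyte and mast cell genes, 17 (77.3%) were detected on none, against 39.4% of all genes, among them MPO, ELANE, AZU1 and KIT. In the dendritic cell list, 5 of 17 genes (29.4%, against 48.1% of all genes) were detected on all 3 arrays. IRF7 and TCF4, which act in B cells as well, were its 2 bright members (11.8%).

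The remaining lineages held few bright genes, from 0 to 2 per list. Over all genes, 48.1% were detected on all 3 arrays, 39.4% on none, and 26.5% were bright. The share on none was 45.5% in the epithelial list, near that of all genes, and 65.2% to 68.2% in the other lists below. Of 23 erythroid and megakaryocyte genes, 15 were detected on none, HBB, HBA1 and GATA1 included. The globin gene HBD, EPOR, GP1BA, PPBP and ITGB3 were the 5 detected on all 3 arrays, and no member was bright. Of 22 fibroblast and endothelial genes, 15 were detected on none, and ACTA2, smooth muscle actin, at 310, 271 and 252 units, and ESAM, an endothelial adhesion molecule, at 304, 209 and 236 units, were bright. Of 22 epithelial genes, 10 were detected on none, 7 on all 3 arrays and 1 was bright: DSG2, a desmosomal cadherin, read 688, 573 and 588 units (9.09 ± 0.07, log2, SD, n = 3), and its second probe read 159, 178 and 170 units. Of 24 neural, muscle and liver genes, 16 were detected on none and 1 was bright: MBP, known for myelin basic protein, read 1460, 1932 and 1648 units on 1 probe and between 119 and 157 units on the other 2. The MBP locus also makes golli transcripts in lymphocytes, and which transcript each probe detects was not tested. Of 26 cancer-testis and germline genes, 17 were detected on none, including MAGEA1, MAGEA3, SSX1 and CTAG1B, and TEX19 was the brightest at 140, 125 and 135 units.

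Promoter sequence went with detection. RefSeq promoters of assembly GRCh38.p14 ran from 250 bases before to 50 bases after the gene start. They were matched by Entrez gene identifier to 14439 of 17776 protein-coding genes measured (81.2%). The share of genes detected on all 3 control arrays was 17.8% where the window held 0 to 4 CpG dinucleotides, 43.0% at 10 to 14 and 71.7% at 25 to 29, against 67.8% at 30 to 69. The share detected on none ran from 66.9% at 0 to 4 to 19.2% at 25 to 29. Of 1358 genes with TATAAA in the window on either strand, 31.3% were detected on all 3 arrays, against 56.3% of 13081 genes without it. The windows with TATAAA held few CpG, with a median of 5 against 24. At 0 to 4 CpG the share was 12.7% with TATAAA and 19.7% without, and at 25 to 69 CpG it was 63.3% and 69.2%. Of all 15843 promoters in the table, 9.63% held TATAAA.

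Of the other motifs searched on both strands, GGGCGG, the core of the SP1 box, went with a share of 63.1% against 40.4% without it, and CCAAT with 56.0% against 52.8%. ATGCAAAT, the octamer of immunoglobulin promoters, stood in 242 windows, of which 44.2% belonged to genes detected on all 3 arrays, against 54.1% of those without it, and the median CpG count was 12.5 with it and 23 without. A motif of NF-kappaB was searched too and stood in 27 windows, with 66.7% detected on all 3 arrays, against 53.9% without it. Of all promoters, 58.5% held GGGCGG, 36.4% CCAAT and 1.70% the octamer. GGGCGG itself contains a CpG, so the 2 features overlap. A match of letters is no binding site. Promoters were missing for more of the undetected genes than of the detected ones, with 76.9% against 84.7% matched, and whether this moves the shares was not tested.

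**Figure D4:**
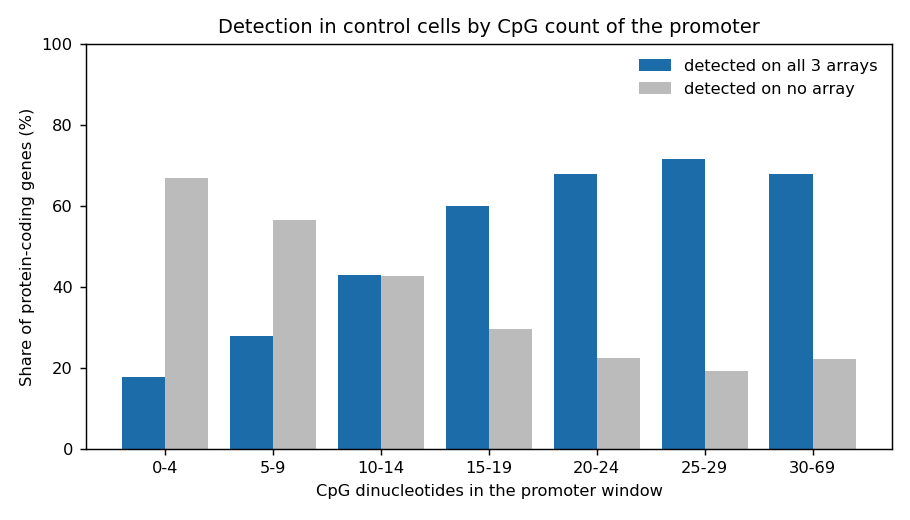
Share of protein-coding genes (y axis, percent) detected on all 3 control arrays or on none, by the number of CpG dinucleotides in the 300-base promoter window (x axis, bins). The share on all 3 arrays is 17.8% in the bin of 0 to 4 CpG and 71.7% in that of 25 to 29, and the share on none runs the other way.

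Single B cell genes ran against this order, and 4 promoters are printed to set such cases beside the brightest gene. Each is the 250 bases before the gene start, read 5′ to 3′ on the gene's strand, with matches to these motifs in capitals. JCHAIN and CD79A, bright in these cells, had 0 and 4 CpG in the 300-base window. PAX5, detected on none, had 30, and EEF1A1, the brightest gene, had 24. EEF1A1 held 1 GGGCGG match, on the other strand, and PAX5 held 2 of GGGCGG and 1 of TATAAA. The windows are chr4:70666509-70666758 on the minus strand for JCHAIN, chr19:41877029-41877278 on the plus strand for CD79A, chr9:37034269-37034518 on the minus strand for PAX5 and chr6:73521033-73521282 on the minus strand for EEF1A1.
JCHAIN: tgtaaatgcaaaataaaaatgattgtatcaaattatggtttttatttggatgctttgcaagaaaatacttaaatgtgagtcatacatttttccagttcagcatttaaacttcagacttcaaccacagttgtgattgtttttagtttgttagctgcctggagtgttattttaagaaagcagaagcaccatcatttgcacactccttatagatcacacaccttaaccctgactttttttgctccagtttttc
CD79A: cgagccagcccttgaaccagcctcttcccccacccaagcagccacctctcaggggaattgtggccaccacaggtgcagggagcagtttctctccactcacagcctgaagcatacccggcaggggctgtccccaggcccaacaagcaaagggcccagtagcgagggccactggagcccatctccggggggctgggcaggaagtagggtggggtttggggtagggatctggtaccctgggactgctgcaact
PAX5: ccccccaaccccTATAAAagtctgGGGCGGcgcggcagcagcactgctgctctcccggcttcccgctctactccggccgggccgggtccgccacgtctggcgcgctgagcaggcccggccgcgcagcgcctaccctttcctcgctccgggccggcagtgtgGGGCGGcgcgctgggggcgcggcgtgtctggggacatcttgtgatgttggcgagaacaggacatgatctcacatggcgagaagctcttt
EEF1A1: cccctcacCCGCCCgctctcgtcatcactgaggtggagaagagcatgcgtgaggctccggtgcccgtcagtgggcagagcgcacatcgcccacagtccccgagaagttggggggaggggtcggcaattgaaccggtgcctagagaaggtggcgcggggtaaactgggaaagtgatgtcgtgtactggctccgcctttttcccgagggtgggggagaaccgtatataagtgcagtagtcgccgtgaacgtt

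Replicates 2 and 3 were the closest pair of control arrays. Over the 9638 genes detected on all 3, the median SD of the log2 level was 0.19. The correlation of log2 levels across genes, which are not independent replicates, was 0.978 between replicates 1 and 2, 0.982 between 1 and 3, and 0.991 between 2 and 3. In 202 genes (2.1%), the highest and lowest array differed by at least 2-fold. The pair of replicates 1 and 2 held 162 such genes, 1 and 3 held 80, and 2 and 3 held 12. Over the same genes, with the 2 remaining arrays normalized on their own, the count was 12 without replicate 1, 84 without replicate 2 and 169 without replicate 3. The count also depends on the processing: it was 47 without background correction, 79 with an offset of 50, 48 in the other deposited table and 472 with median centring.

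The 10 genes of widest range were of several kinds. OAS2, an interferon-induced sensor of double-stranded RNA, read 196, 535 and 301 units, a range of 2.33 on the log2 scale. MX1, an interferon-induced antiviral GTPase, read 1497, 3505 and 2356 units, and IFI44L, also induced by interferon, read 197, 399 and 241 units. All 3 were highest in replicate 2 and lowest in replicate 1. MIR155HG, the host transcript of miR-155 and a member of the EBV-line list, read 1148, 315 and 348 units, and SNORA61, a small nucleolar RNA (snoRNA), read 615, 170 and 211 units. MIR155HG and SNORA61 were highest in replicate 1. PFKFB4, a regulator of glycolysis, with GOLGA8B, TRIM16L, CMKLR2 and MIR181A2HG were the others of the 10.

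Counts over 3 groups follow as a description. The groups were chosen after these values were seen and hold OAS2, MX1, IFI44L and SNORA61, so they are not independent of them. Of 30 interferon-stimulated genes detected on all 3 control arrays, of 36 measured, 25 were highest in replicate 2, 4 in replicate 1 and 1 in replicate 3, and 6 had a 2-fold range, against 2.1% of all genes. Of 21 sterol synthesis and uptake genes, all detected on all 3 arrays, 16 were highest in replicate 2, and 4 had a 2-fold range. HMGCS1, which makes the precursor of mevalonate, read 626, 1175 and 533 units, SQLE, squalene epoxidase, read 986, 1174 and 651 units, and DHCR7, the last enzyme of cholesterol synthesis, read 252, 453 and 345 units. Of 84 snoRNA genes detected on all 3 arrays, of 279 measured, 65 were highest in replicate 1 and 12 (14.3%) had a 2-fold range. Among all 9638 genes, 3509 were highest in replicate 1, 3148 in replicate 2 and 2981 in replicate 3. Replicate 1 was also the brightest array before normalization, and its part in these differences was not tested.

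**Figure D5:**
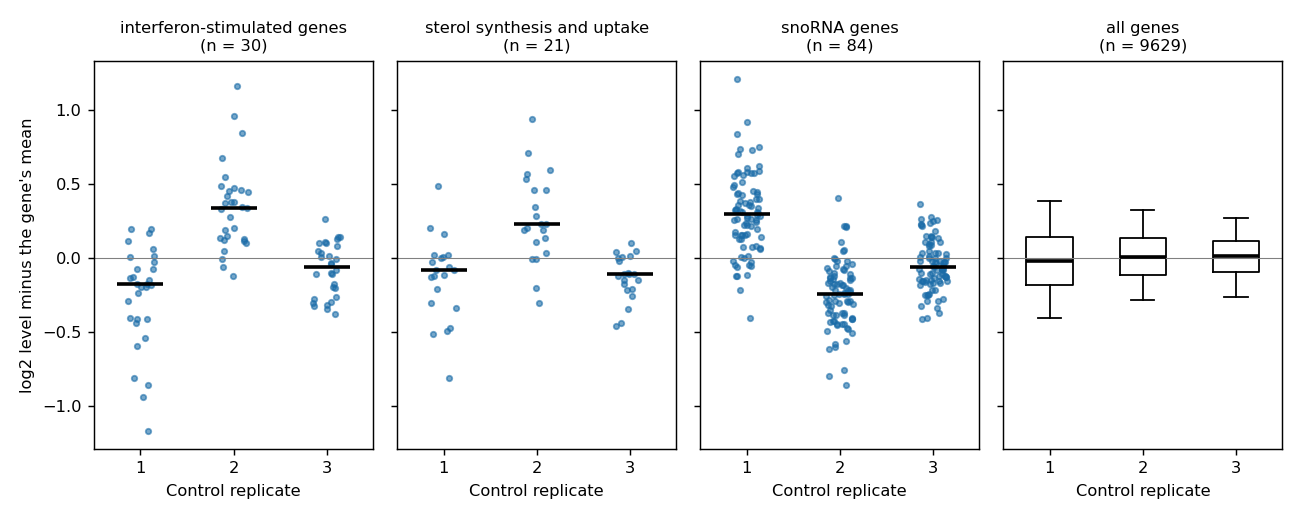
Background-corrected log2 level of each gene minus its mean over the 3 control arrays (y axis), by replicate (x axis), for interferon-stimulated, sterol and snoRNA genes detected on all 3 arrays and, as boxes (median, quartiles, whiskers at the 5th and 95th percentiles), for all genes without Y-linked genes. Points are genes and thick bars medians; most interferon-stimulated genes, 25 of 30, are highest in replicate 2 and most snoRNA genes, 65 of 84, in replicate 1.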

How the data were processed

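Total RNA of control Mec-1 cells was amplified and biotin-labelled as cRNA, per the labels' protocols, and read on Illumina beadchips. The authors deposited 1 signal intensity per probe and array, not background-subtracted as its low end shows, and a detection p-value beside it per the file headers. The submitters' processing notes name GenomeStudio, and its version is not given in the sources used here. It covered 47323 probes, and 2 of them lacked values. Another deposited table held intensity values that share quartiles between columns and served as an alternative. The other 3 arrays entered no value.

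Platform annotation gave 30113 probes 1 gene symbol, 8 several and 17202 none. Of the symbols, those of 30074 probes were updated through the RefSeq gene table of GRCh38.p14. Levels were corrected with limma 3.58.1 under R 4.3.3 (function nec, offset 16), log2-transformed and quantile-normalized over the 3 control arrays. A log2 level is the mean ± SD over them. The counting step was tested on simulated data. With 1 group no test between groups was run, and the lists are described by counts and median rank.

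The members, the 23 lists (453 of 498 symbols measured) and the settings were chosen with earlier results of these data known. Named were the 30 genes of lowest mean rank, up to 8 detected members of lowest rank per list, undetected members with no level, members of the B cell, CLL, EBV, T, NK, monocyte and SLAM lists by detection class, and the 10 genes of widest range. Provisional and open reading frame symbols, Y-linked genes and XIST were left out. The values of SYK, INPP5D, FCGR2B, TNFRSF13B, CXCR4, ITGA4, TCL1A, ATM, CD200, SDC1, CD86 and other EBV-line genes and the interferon, sterol and snoRNA groups were picked after they were seen. The alternatives were a detection p under 0.01, an adjusted detection p, 2 times background, each probe or the brightest probe alone, the mean of a gene's probes, median centring, an offset of 50, uncorrected background, the other table and leaving out each array.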

Additional observations from a re-analysis of the deposited data

Results flagged for a closer look

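Signal outside the named genes was large. Of 17208 probes that carry no symbol or several symbols here, 3411 (19.8%) were detected on all 3 control arrays, against 42.5% of the 30113 probes with 1 symbol, and 10806 of them were detected on none. They were drawn out because they hold signal in data that the gene lists do not use. Which transcripts these 3411 probes detect was not analysed here.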

How the results depend on the processing

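The calls of presence for B cell identity, B cell receptor signalling and EBV-line genes held their counts under a detection p under 0.01, an adjusted detection p and the brightest probe alone. Under a detection p under 0.01 the members detected on none came to 11 of 28 (CLL), 17 of 26 (T cell), 16 of 24 (NK) and 20 of 26 (monocyte). A stricter cut cannot lower the count on none, for all genes either, so these counts say nothing particular about the lists. At 2 times background on all 3 arrays, a setting chosen after seeing the data, 5304 genes were called present, with 0 T cell, 2 NK and 2 monocyte genes. Counting each probe on its own, a larger total by construction, gave 13650 of 30113 probes (45.3%) detected on none. On none were then 9 B cell identity, 4 receptor signalling, 21 CLL, 7 EBV-line, 29 T cell, 21 NK and 22 monocyte probes, and on all 3 arrays 34 receptor signalling and 28 CLL probes. These probe counts are given without the probe totals of the lists, so they are not set against the share of all probes. Leaving out 1 array gave 9869 to 9975 genes on all remaining arrays and 8394 to 8545 on none. The count of genes with a 2-fold range, 202, was 47 without background correction, 79 with an offset of 50, 472 with median centring, 48 in the other deposited table (chosen after seeing the data) and 12 to 169 without 1 array. The cause was not tested. Median centring, an offset of 50 and uncorrected background keep the order of probes within an array. Ranks could therefore not move under these settings, and their stability there says nothing about robustness. Under the other table, ranks of the genes followed moved by at most 0.333. With the mean of a gene's probes, 128 of the 169 genes followed moved in rank by at least their spread between arrays. Log2 levels moved by more than 1 SD in 67 to 81 of them under an offset of 50, no background correction, the other table or the mean of a gene's probes, and in none under median centring. The planned shares of promoters by detection class were not run, since under 80% of the genes detected on none (76.9%) had a promoter. Probes within a few units of the detection limit, such as those of BCL6 and CXCR5, have little signal over background. No paired analysis was possible because only 1 group was described and no test was run.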

Other observations

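Gene families differed widely in detection in control Mec-1 cells. These families were picked from symbols after the data were seen, and their shares are set against 48.1% of all genes detected on all 3 arrays and 39.4% on none. All 73 measured genes of mitochondrial ribosomal proteins were detected on all 3 arrays, as were 73 of 76 genes of cytosolic ribosomal proteins, 41 of 44 proteasome subunit genes (PSM) and 33 of 35 genes of complex I of the respiratory chain (NDUF). Of 368 olfactory receptor genes, 3 were detected on all 3 arrays and 318 (86.4%) on none. Keratin genes were detected on all 3 arrays in 1 of 49 cases and collagen genes in 3 of 43, and none of 35 beta-defensin genes, 25 taste receptor genes or 14 type I interferon genes was. Other families lay nearer the share of all genes, with 52.8% of zinc finger genes (ZNF), 43.7% of solute carriers (SLC), 57.9% of kinesins (KIF) and 27.6% of HOX genes detected on all 3 arrays. The single keratin was KRT10, at 448, 271 and 295 units, and the 3 collagens were COL9A2, COL24A1 and COL8A2, all at most 127 units.

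Of 37 interleukin genes, 10 (27%) were detected on all 3 control arrays and 23 (62.2%) on none, against 48.1% and 39.4% of all genes. IL18, a cytokine of the IL-1 family, read 3251, 1750 and 1716 units. IL10, a cytokine that B cells of CLL can secrete, read 1347, 782 and 782 units, and IL32 read 1201, 624 and 853 units. The other members of the 10 read at most 207 units. Outside the lists, F2R, the thrombin receptor PAR1, read 11037, 9128 and 9498 units (mean rank 36.7), and ITIH5, a protein of the extracellular matrix, read 10066, 7133 and 7418 units (mean rank 61).

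By RefSeq class, 9198 of 17776 protein-coding genes (51.7%) were detected on all 3 control arrays, against 147 of 798 lncRNA genes (18.4%) and 14 of 561 miRNA genes (2.50%). The probes of miRNA genes cannot be read as levels of mature miRNA. Across chromosomes, the share detected on all 3 arrays lay between 40.6% (301 of 741 genes of chromosome X) and 59.2% (306 of 517 genes of chromosome 15).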
